A study of Mus musculus with 8 samples.

Results

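The natriuretic peptide system was followed through 6 genes on a whole-genome mouse array, the peptide genes Nppa, Nppb and Nppc and the receptor genes Npr1, Npr2 and Npr3. The members were chosen by gene name among the non-control probes. They were read by 6 of 39429 probes, and by 6 of the 29608 gene names on the array. The Nppa probe was printed on 10 spots and each of the others on 1. Because the genes were chosen with their PACAP-over-vehicle ratios known, those ratios are given as a description without a test.

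PACAP, the pituitary adenylate cyclase-activating polypeptide, or its vehicle was injected into the skin of the mouse forepaw to follow gene expression with and without its receptor PAC1R. The WT group was C57BL/6, and the KO group carried Adcyap1r1 -/-, the deletion of the gene for PAC1R. All mice were 9 to 10 weeks old and male per the study's methods. They were anaesthetised and received 5 µL of vehicle, saline with 0.1% BSA, either alone or with 1e-07 mol/L PACAP, in the middle of the footpad. Palm skin was taken 30 or 60 min later, which gave 8 RNA samples, a PACAP and a vehicle sample for WT at 30 min, KO at 30 min, WT at 60 min and KO at 60 min. The methods give 6 mice of each genotype, and which mice entered each RNA sample is not given in the sources used here. Each PACAP sample was hybridised against its vehicle sample on 2 arrays with the Cy3 and Cy5 dyes exchanged, so each of the 4 comparisons is 1 pair of RNA samples (n = 1) and has no replicate check over animals.

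Natriuretic peptides are small ring-shaped hormones that raise cyclic GMP in their target cells. Atrial natriuretic peptide, encoded by Nppa, and B-type natriuretic peptide, encoded by Nppb, are best known as hormones of the heart that lower blood volume and pressure, and B-type natriuretic peptide is also made by a set of sensory neurons that carry itch. C-type natriuretic peptide, encoded by Nppc, acts locally on bone growth and on blood vessels. Npr1 encodes the guanylyl cyclase receptor for the atrial and B-type peptides, Npr2 the guanylyl cyclase receptor for the C-type peptide, and Npr3 the clearance receptor, which takes up all of these peptides and has no cyclase domain.

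The Nppb probe carries the largest change among these genes, and the Npr1 probe reads the receptor for its product. Both 60-base probe sequences are shown because the values of these genes rest on what they bind. The positions are those of the files in the mm9 build. The Npr1 probe is spread over 494 genomic bases, more than its own 60 bases, so its match is interrupted. Whether the probes lie in exons or UTRs was not looked up, since no mm9 annotation was used here.

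Nppb probe, chr4:147360489-147360548, plus strand: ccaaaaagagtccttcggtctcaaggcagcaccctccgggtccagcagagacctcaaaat

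Npr1 probe, chr3:90259171-90259664, minus strand: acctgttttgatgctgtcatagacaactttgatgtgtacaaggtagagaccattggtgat

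The Nppa probe is at chr4:147376024-147376083 on the plus strand, next to Nppb. The Nppc probe is at chr1:88563020-88563079 on the minus strand. The Npr2 probe is at chr4:43664035-43664094 on the plus strand, and the Npr3 probe at chr15:11769937-11769996 on the minus strand.

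Nppb and Nppa are neighbours with the same orientation, 13516 bases apart in RefSeq's GRCm38.p6 annotation with 0 genes between them. The 250 bases before the transcription start of each in the RefSeq promoter table are shown, because the ratio of Nppb was high where that of its neighbour was not. In the Nppb record this start lies inside the gene record, which begins at 147985786. The capitals mark 3 short motifs, searched on both strands: GATAA, the core bound by GATA factors, the TATA box TATAAA, and CATTCC, the MCAT element of muscle genes.

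Nppb, chr4:147985650-147985899, plus strand: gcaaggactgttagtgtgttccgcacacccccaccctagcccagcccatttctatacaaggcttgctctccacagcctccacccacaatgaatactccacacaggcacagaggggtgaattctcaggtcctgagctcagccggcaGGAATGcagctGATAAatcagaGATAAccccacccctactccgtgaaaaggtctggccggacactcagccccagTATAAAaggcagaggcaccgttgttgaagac

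Nppa, chr4:148000472-148000721, plus strand: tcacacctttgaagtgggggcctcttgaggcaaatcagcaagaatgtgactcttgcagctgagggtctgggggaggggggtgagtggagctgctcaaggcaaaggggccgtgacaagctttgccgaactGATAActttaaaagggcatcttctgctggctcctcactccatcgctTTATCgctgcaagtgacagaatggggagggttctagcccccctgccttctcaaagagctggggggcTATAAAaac

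The Nppb window held GATAA with its first base at -94 and at -83, TATAAA at -31, and CATTCC on the other strand at -105. The Nppa window held GATAA at -121 and, on the other strand, at -75, and TATAAA at -9. Neither window held the cyclic AMP response element TGACGTCA, its shorter core TGACG or the AP-1 motif TGANTCA. Among 27025 promoter windows of the same length, GATAA was in 23% and TATAAA in 13%, CATTCC in 12.6%, TGACG in 17.9%, TGANTCA in 6.87% and TGACGTCA in 1.62%. These matches describe the letters only. No overlap between motif matches was present in either window.

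Detection differed by dye over the whole array. Depending on the array, 78.6% to 94.5% of spots exceeded background clearly in red Cy5 and 54.0% to 65.3% in green Cy3, with 0 saturated. The Cy3 share was 54.0% to 60.5% on the WT arrays and 60.0% to 65.3% on the KO arrays. A difference between genotypes in the background flags of a dim probe therefore cannot be told apart from one between arrays. The tissue label, palm skin, was checked against 7 epidermal keratinocyte markers, among them Krt1 and Krt14, and 7 of 7 were above background in both channels on every array. Over all 39421 probes with 4 ratios, the mean ratios of WT and KO at 30 min correlated negatively (Pearson r = -0.37 across probes, which are not independent), while the same arrays taken 1 dye orientation at a time correlated at 0.40 and 0.48. The direction of every ratio is the one the labelled dyes give. The Adcyap1r1 probe was above background on both arrays in 8 of 8 samples, at a log2 level of 8.27 to 8.76 in WT and 7.91 to 8.56 in KO. Which part of the gene the deletion removes is not given in the sources used here, so this probe is no check of the genotype labels. The WT arrays shared 1 slide and the KO arrays another, and a difference between genotypes therefore cannot be told apart from one between slides.

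Nppb was the member that stood out. Its ratio of PACAP over vehicle in KO skin was 8.95-fold after 30 min, then 4.41-fold at 60 min. Its arrays of WT skin differed in sign at both times, so no WT fold is given and their values stand below by array. Ratios are the deposited log ratios, signed so that PACAP is the numerator, as the log2 mean of both arrays of a comparison. A probe counts as past the thresholds when that mean is at least 2.0-fold or at most 0.5-fold, and when each of both arrays gives that direction with a p of the scanner software (Feature Extraction) under 0.01. That p comes from an error model for 1 array and does not speak of animals.

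The processed signals of the Nppb probe show the same ordering array by array. In KO skin at 30 min the PACAP sample read 128 in Cy5 and 151 in Cy3, against 12.0 in Cy3 and 20.1 in Cy5 for vehicle. In KO skin at 60 min the PACAP sample read 141 and 162, against 29.6 and 39.8 for vehicle. Thus both KO PACAP samples lay above every other sample in both dyes. In WT skin at 30 min the PACAP sample read 7.45 in Cy5 and 4.41 in Cy3, against 6.32 in Cy3 and 9.57 in Cy5 for vehicle. In WT skin at 60 min it read 12.4 in Cy5 and 7.54 in Cy3, against 4.68 in Cy3 and 11.7 in Cy5 for vehicle. The WT PACAP and vehicle samples overlapped at both times, and in each of the 4 WT samples the Nppb probe was well above background in Cy5 only, on 1 of 2 arrays. The KO vehicle sample at 30 min was also above background on 1 of 2 arrays, and the other 3 KO samples on both.

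**Figure D1:**
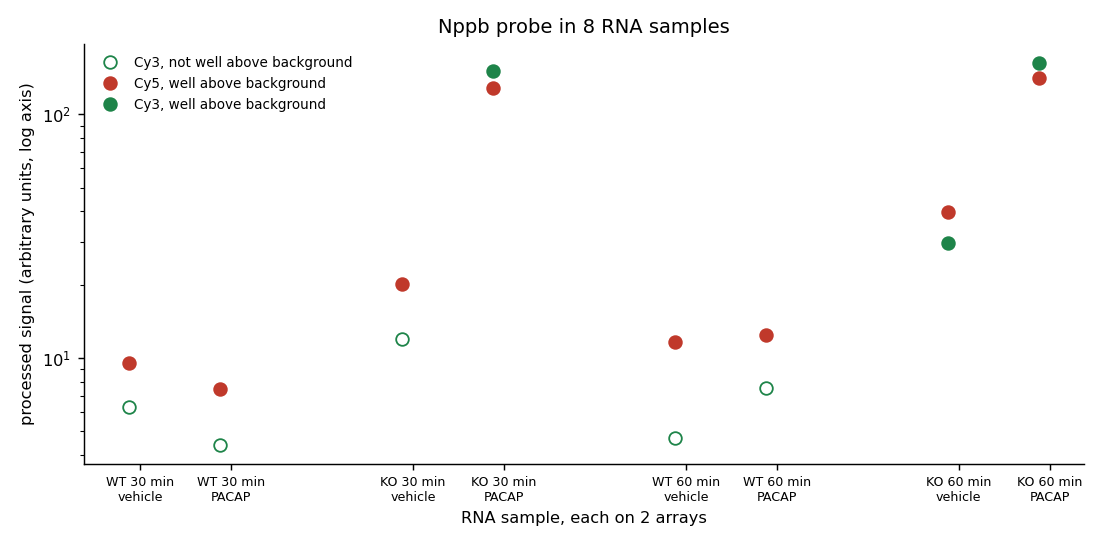
Processed signal of the Nppb probe (arbitrary units, log axis) in the 8 RNA samples, each measured once in Cy3 and once in Cy5, with open circles where the spot was not well above background. The KO PACAP samples sit between 128 and 162, and the WT samples between 4.41 and 12.4.

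The log2 ratio of Nppb in KO at 30 min was 3.42 on array 1 and 2.90 on array 2, with Feature Extraction p of 7.1e-18 and 1.4e-16. In KO at 60 min it was 2.25 and 2.03, with p of 3.7e-14 and 9.5e-13. In WT at 30 min the arrays disagreed in sign, at 0.24 and -1.12, with p of 0.860 and 0.257. In WT at 60 min they disagreed again, at 1.41 and -0.63, with p of 0.111 and 0.428. In both WT comparisons the Nppb ratio thus followed the dye and not the injection, with the Cy5 sample higher on each array. The size of the KO ratio at 30 min rests on a vehicle sample that was above background on 1 of 2 arrays. Of all probes, 0.601% were past the thresholds upward in the KO comparison at 30 min and 0.142% in that at 60 min. The WT shares were 0.254% at 30 min and 0.583% after 60 min. Nothing is read from these shares for Nppb, since its ratios were known when it was chosen.

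**Figure D2:**
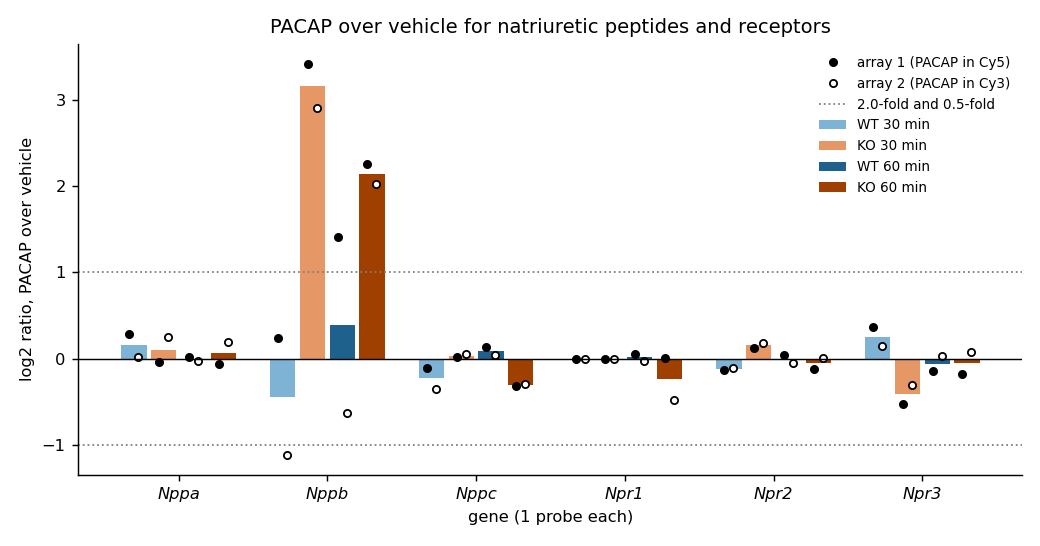
Log2 ratio of PACAP over vehicle for the 6 genes, with bars for the mean of both arrays, filled points for array 1 and open points for array 2, and dotted lines at 2.0-fold and 0.5-fold. Only the 2 Nppb bars of KO skin pass a dotted line, and the Nppb points of WT skin lie on both sides of 0.

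How large the Nppb ratio is depends on the scale. The log2 levels used normexp (offset 50) for the background, then loess and scaling between arrays. On them the level of Nppb went from 6.32 in vehicle to 7.58 with PACAP in KO at 30 min, a 2.39-fold difference. In KO at 60 min it went from 6.60 to 7.75, a 2.23-fold difference. In WT it was 6.14 in vehicle and 6.13 with PACAP at 30 min, and 6.17 in both at 60 min. The offset draws dim signals together, so levels of dim probes are compressed on this scale and the ratios from the deposited log ratios are larger. Both scales put the KO PACAP samples above all other samples.

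The other peptide genes did not pass the thresholds in any comparison. Nppa had mean ratios between 0.997 and 1.11-fold. Its 10 spots gave ratios between 0.811 and 1.33 in WT at 30 min, while the KO spots lay between 0.919 and 1.14 at the earlier time and between 0.972 and 1.16 at the later. The Nppa log2 level in WT skin was 6.32 in vehicle and 6.33 with PACAP after 30 min, and 6.35 and 6.32 after 60 min. In KO skin it was 6.46 and 6.49 after 30 min, and 6.38 and 6.40 after 60 min. All 4 KO samples were thus above all 4 WT samples, by little, as they were for Nppb, and 8.28% of all probes had this order. Nppa was above background on both arrays in the 4 KO samples and on 1 of 2 in the 4 WT samples. For Nppa and Nppb, such flags cannot be told apart from the higher Cy3 detection range of the KO arrays given above. Nppc, the C-type peptide gene, was above background on both arrays in 8 of 8 samples. Its mean ratio in WT skin was 0.855 after 30 min and 1.07 after 60 min, and in KO skin 1.03 and 0.812. Its log2 level in WT skin was 7.59 in vehicle and 7.47 with PACAP after 30 min, and 7.75 and 7.87 after 60 min. In KO skin it was 7.38 and 7.39 after 30 min, and 7.64 and 7.42 after 60 min. PACAP and vehicle samples of Nppc overlapped, and the WT samples at 60 min were the highest.

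Among the receptors, Npr2 and Npr3 were above background on both arrays in 8 of 8 samples, and Npr1 in 0 of 8. Npr1 was above background on 1 of 2 arrays in 7 samples, and on neither array in the KO vehicle sample at 30 min. The software had set its ratio to 0 on both arrays of WT and of KO at 30 min. Its processed signal was between 2.54 and 6.68 over all arrays, and no fold is given for it. The receptor for the product of Nppb was therefore near the limit of detection of this probe in all samples. In bulk skin, fewer cells of a type and less RNA per cell cannot be told apart.

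Npr2 had log2 levels in WT skin of 11.67 in vehicle and 11.58 with PACAP after 30 min, and of 11.28 and 11.33 after 60 min. In KO skin its levels were 11.46 and 11.62 after 30 min, and 11.39 and 11.30 after 60 min. Its mean ratios lay between 0.920 and 1.11-fold. Npr3 had levels in WT skin of 6.97 in vehicle and 7.12 with PACAP after 30 min, and of 6.89 and 6.91 after 60 min. In KO skin its levels were 7.39 and 7.16 after 30 min, and 6.85 and 6.83 after 60 min. Its mean ratios lay between 0.751-fold in KO at 30 min and 1.20-fold in WT at 30 min. For both receptors, the 4 samples of 30 min lay above the 4 of 60 min, and the samples of PACAP and of vehicle overlapped. Of all probes, 10.8% had this order of times. The 30 min samples ranged from 11.46 to 11.67 for Npr2 and from 6.97 to 7.39 for Npr3, and the 60 min samples from 11.28 to 11.39 and from 6.83 to 6.91.

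**Figure D3:**
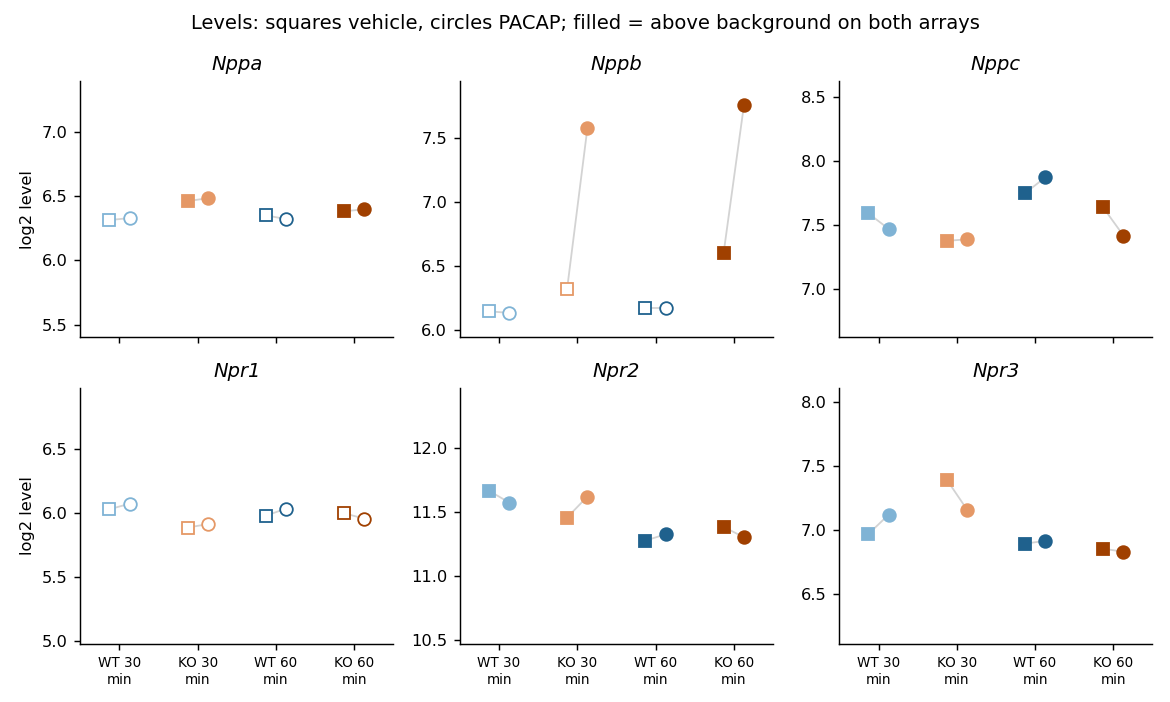
Log2 level of each gene in the 8 RNA samples, with squares for vehicle and circles for PACAP, and each panel spanning 2 log2 units. Filled symbols are above background on both arrays. Nppb spans 6.13 to 7.75 and Npr1 5.88 to 6.07.

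The vehicle samples alone give comparisons that the choice of genes did not use, although the same samples are the denominators of the ratios above. They were tested with limma on log2 levels, with Benjamini-Hochberg adjustment over 24903 probes above background on both arrays of at least 1 vehicle sample. Each genotype group pooled both times and each time group both genotypes, so the SE and p include that difference. For KO against WT skin, 0 probes (0%) had an adjusted p below 0.05 in the limma fit, and 1262 had an unadjusted p below 0.05. For 60 against 30 min, 0 probes (0%) passed in limma, and 4396 had an unadjusted p below 0.05. Npr1 did not pass the filter on dim probes. Nppb and Nppa were taken in by the filter only through KO samples, so the test is read for Nppc, Npr2 and Npr3 alone. Of these, 0 passed in either comparison.

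Nppb had a mean log2 level of 6.46 in KO and 6.16 in WT vehicle skin, a difference of 0.30 (SE 0.14, 2 samples in each group). Nppb entered this fit only through the KO vehicle sample at 60 min and Nppa only through the KO vehicle samples, the group where both were higher, so their differences here and between times are a description. Neither was in the fit on probes above background in all 4 vehicle samples. On the processed signals without the offset, the same Nppb difference was 1.25 (SE 0.47). Both KO vehicle samples of Nppb were above both WT vehicle samples, an order that 16.5% of all probes had. No test result is read for this gap, since the filter took Nppb in through its higher group. The difference was 0.16 without the KO sample at 60 min and 0.44 without that at 30 min. Npr3 was 0.19 higher in KO (SE 0.21, limma adjusted p = 0.918), with KO minus WT at 0.43 at 30 min and -0.04 at 60 min. Without the KO sample at 60 min the Npr3 difference was 0.46, and that of Nppc was -0.29. Without the KO sample at 30 min the Npr3 difference was -0.077 and that of Nppc -0.032. Nppc was 0.16 lower, with a log2 difference of -0.16 (SE 0.14, adjusted p = 0.906). Nppa differed by 0.09 and Npr2 by -0.05.

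Between times, Npr3 had a log2 difference of 60 minus 30 min of -0.31 (SE 0.16, limma adjusted p = 0.392). Within the slides, this Npr3 difference was -0.08 in WT and -0.54 in KO. Npr2 had a difference of -0.23 (SE 0.12, adjusted p = 0.394), at -0.39 in WT and -0.07 in KO. Nppc had a difference of 0.21 (SE 0.12, adjusted p = 0.440), at 0.16 in WT and 0.26 in KO. Nppb and Nppa differed by 0.15 and -0.02. None of Nppc, Npr2 and Npr3 passed the test, in a design with 2 samples a group.

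The pathway around the peptides was described from a list of 30 genes, of which 27 were measured. It held the processing enzymes Corin and Furin, the degrading enzyme Mme (neprilysin), the clearance receptor ligand Ostn (musclin), the soluble guanylyl cyclases, the cyclic GMP-dependent kinases Prkg1 and Prkg2, the phosphodiesterases that break down cyclic GMP, and kinase targets such as Vasp and Kcnma1. In each of the 4 comparisons, 0 of 27 genes passed the thresholds in either direction. Of all probes, 0.0964% were past them downward in the WT comparison at 30 min and 0.109% at 60 min, and 0.107% and 0.15% in the KO comparisons. The median log2 ratio of the list at 30 min was 0.10 in WT and -0.21 in KO skin. At 60 min the list medians were -0.00 and 0.03, against 0 over all probes in each comparison.

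At 30 min, 16 of the 27 genes had ratios above 1 in WT and 8 in KO. The highest pathway gene in WT at 30 min was Ppp1r12a, a subunit of myosin phosphatase, at 1.70-fold, and the lowest was Nos2, inducible nitric oxide synthase, at 0.741-fold. In KO at 30 min Ostn was highest at 1.45-fold and Prkg1 lowest at 0.645-fold. Prkg1 had been at 1.57-fold in WT at 30 min. In WT at 60 min Pde9a, a phosphodiesterase with high affinity for cyclic GMP, was highest at 1.26-fold and Ostn lowest at 0.825-fold. In KO at 60 min Ppp1r12a was highest at 1.27-fold and Pde9a lowest at 0.846-fold.

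**Figure D4:**
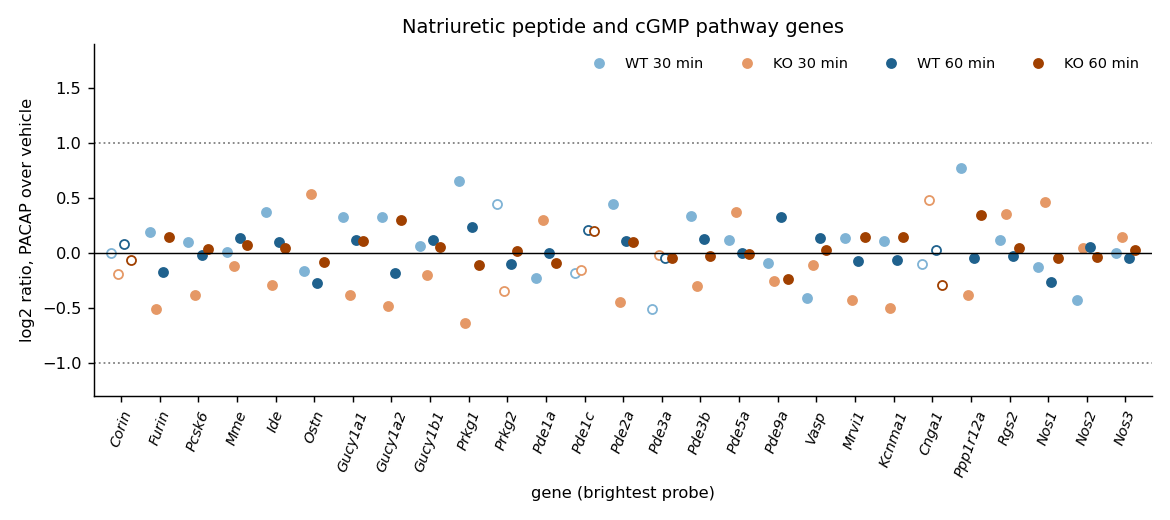
Log2 ratio of PACAP over vehicle for the brightest probe of 27 pathway genes in the 4 comparisons, open where the probe was not above background in both channels on both arrays. Dotted lines mark 2.0-fold and 0.5-fold, and 0 of 27 genes passed them.

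The list of skeletal muscle markers, such as Acta1 and Ckm, had medians of the same direction as the pathway list at 30 min. Opposite directions in WT and KO were not particular to muscle then. They were found for 51.8% of 20451 probes above background, and the mean ratios correlated at -0.52 over 20278 such probes. The median log2 ratio of 10 muscle genes was 0.83 in WT at 30 min, with 2 of 10 past the thresholds upward, and -0.89 in KO at 30 min, with 4 of 10 past them downward. The summed log2 level of these genes was between 122.8 and 128.7 in the vehicle samples and between 119.0 and 131.4 in the PACAP samples. Vascular smooth muscle and pericyte markers had a median of 0.15 in WT skin and -0.34 in KO skin then, and 0 of 6 passed the thresholds. The part of these cells in the pathway values was not tested.

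Heart muscle was looked at because Nppb is a heart gene. Of 8 cardiac markers, 0 passed the thresholds in any comparison, and their summed log2 level lay between 58.8 and 60.2 in vehicle samples and between 59.3 and 60.1 in PACAP samples. The defining markers Nkx2-5, Ryr2 and Tnni3 were above background on 1 of 2 arrays in each of the 8 samples, none on both, so no fold is given for them. The other 5, by their brightest probes, were above background on both arrays in 8 of 8 samples. In KO skin after 30 min they lay between 0.578-fold for Myh6, a cardiac myosin heavy chain, and 1.42-fold for Myl7, the atrial myosin light chain, whose arrays gave log2 ratios of 0.04 and 0.97. In WT skin after 30 min the same genes lay between 0.842-fold for Myl7 and 1.80-fold for Myh6. After 60 min they lay between 0.806 and 1.26-fold in KO skin and between 0.934 and 0.965-fold in WT skin.

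Marker lists of other cell types were set beside Nppb, counting a gene when any of its probes passed. Of 9 neutrophil genes, 4 passed the thresholds upward in KO at 30 min and 2 in KO at 60 min, against 0 in both WT comparisons. S100a8, a calcium-binding protein of neutrophils and of stressed keratinocytes, had KO ratios of 4.13-fold after 30 min and 4.56-fold after 60 min, and WT ratios of 1.67 and 1.87-fold. The others past them after 30 min were S100a9 at 4.01-fold, Mmp9 at 3.70-fold and Retnlg at 2.91-fold, where the vehicle sample of Mmp9 was above background on 1 of 2 arrays. After 60 min S100a9 was past them again at 3.57-fold, while Mmp9 at 2.12-fold and Retnlg at 1.13-fold were not. In WT skin S100a9 was at 1.93-fold after 30 min and 1.47-fold after 60 min, and Retnlg at 1.79 and 0.558-fold. The 30 min values of both in WT thus lay just under the 2.0-fold cut. Of the genes past the thresholds at neither time, Ly6g had KO ratios of 1.92-fold after 30 min and 0.924-fold after 60 min, and Csf3r of 0.737 and 1.20-fold. Camp was at 1.51-fold after 30 min by its brightest probe. The KO arrays differed in sign for Cxcr2 at both times and for Camp after 60 min, so no fold is given there. Ngp was above background on 1 of 2 arrays and the software had set its ratio to 0 after 30 min, so no fold is given. The summed log2 level of the neutrophil genes was 78.8 in vehicle and 85.3 with PACAP in KO at 30 min, and 80.0 and 84.7 in KO at 60 min, against 78.5 and 81.2, and 81.6 and 82.1, in WT. Of 6 wound keratinocyte genes, 3 passed upward at 30 min and 4 at 60 min in KO skin, against 0 and 3 in WT skin. In KO skin at 30 min 1 of these, Krt6b, passed by a probe other than its brightest. Krt16, a keratin of injured epidermis, had KO ratios of 2.23-fold after 30 min and 5.38-fold after 60 min, and WT ratios of 0.859 and 2.30-fold. Sprr1b of this list went the other way in KO skin after 30 min, at 0.726-fold, with log2 ratios of -0.62 and -0.30 by array. By the brightest probe, 5 of the 6 genes had ratios above 1 in KO skin at 30 min and 6 at 60 min. In WT skin these counts were 2 and 4. Of 10 hair shaft genes, 3 passed upward at 30 min and 10 at 60 min in WT skin, and 10 and 0 in KO skin. By the brightest probe, Krt85 was not among them, which leaves 2 and 9 genes in WT skin and 9 and 0 in KO skin. The summed log2 level of the hair genes was 119.6 in vehicle and 115.5 with PACAP in KO at 60 min, and 90.3 and 102.8 in KO at 30 min. In WT it was 97.7 and 103.4 at 30 min, and 95.1 and 115.1 at 60 min. The KO vehicle sample at 60 min thus had the highest level of the hair genes. Of 7 epidermal keratinocyte genes, Krt1 and Krt10, keratins of the differentiated layers, passed downward in KO skin after 30 min at 0.455 and 0.365-fold, and 0 passed in the other comparisons. The median log2 ratio of this list was -0.78 there, with a summed log2 level of 110.1 in vehicle and 104.6 with PACAP. Of 8 hepatocyte genes, 6 passed downward in WT skin at 60 min, 4 of them by the brightest probe, and 0 in the other comparisons. Of 12 cartilage and bone genes, 1 passed downward in KO skin at 30 min, by a probe other than its brightest. The eccrine gland, Schwann and neuron, endothelial and adipocyte lists had 0 genes past the thresholds in each comparison. The part of any of these cell types in the Nppb values was not tested.

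The Nppb pattern, past the thresholds upward in both KO comparisons, was shared by 30 probes in all. Of these, 20 (0.0507% of 39421 probes), Nppb included, were not past them upward in either WT comparison. Some of the 20 had a WT mean ratio beyond 2.0-fold or 0.5-fold all the same, namely Acod1 at 3.25-fold and Sprr2j-ps at 2.48-fold after 60 min, Ccl4 at 2.56-fold after 30 min, and Fpr2 at 2.68-fold and then 0.437-fold. These probes were singled out after their values were seen. The probe whose 4 log2 ratios lay nearest to those of Nppb was that of Slpi, a secreted protease inhibitor, with KO ratios of 6.70-fold after 30 min and 5.96-fold after 60 min. Next came Saa1, an acute phase protein, at 5.32 and 3.31-fold, Saa3 at 12.1 and 6.91-fold, Mmp13, a collagenase, at 14.0 and 2.09-fold, and Stfa2, a cystatin of neutrophils, at 3.37 and 3.74-fold. The neutrophil chemokine Cxcl5 was among them at 29.1 and 3.1-fold. The WT ratios of Nppb that enter this distance followed the dye, so the order of the probes is a rough one.

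Genes that neighbour Nppb were read in the same way. Within 250 kb of the Nppb probe lay 32 other probes of 20 gene names, and 0 of them passed the thresholds in any comparison, where 0.601% of all probes passed upward in KO at 30 min and 0.142% in KO at 60 min. Of the 32, 23 were above background in both channels on both arrays in KO skin at each time, and 2 had a ratio that the software had set to 0. Their ratios were between 0.616 and 1.45-fold in KO at 30 min and between 0.795 and 1.23-fold in KO at 60 min. Nppa, the nearest of them at 15.5 kb, had ratios of 1.08 and 1.05-fold there.

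**Figure D5:**
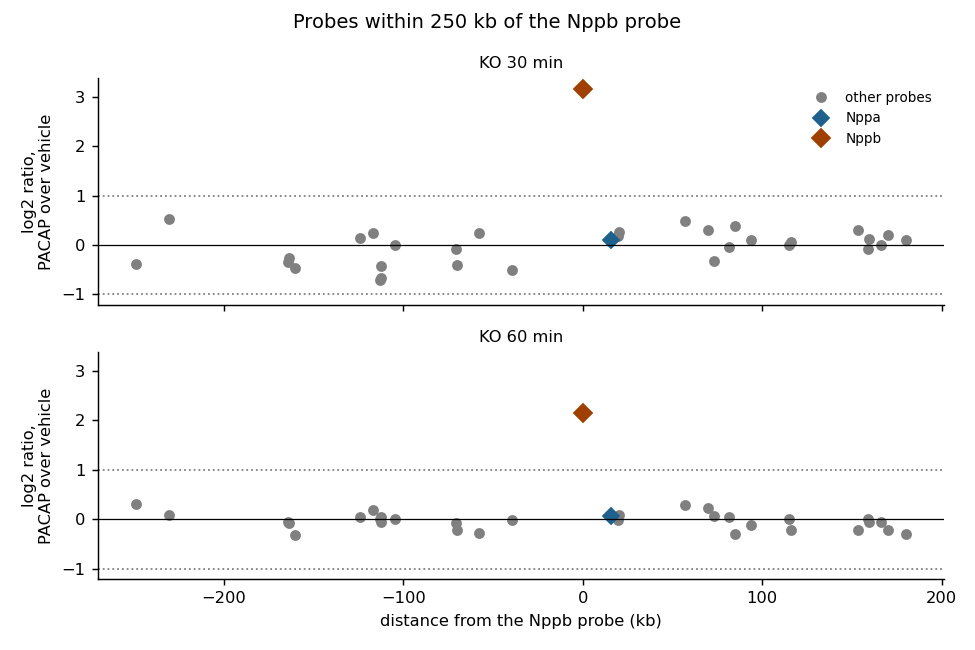
Log2 ratio of PACAP over vehicle in KO skin at 30 and 60 min for the 32 probes within 250 kb of the Nppb probe, by distance in kb, with dotted lines at 2.0-fold and 0.5-fold. Nppb stands at 3.16 and 2.14, and all other probes lie between the dotted lines.

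For the 3 members above background in all samples, the genes whose log2 levels followed them most closely over the 8 RNA samples were sought among 17310 probes. For Nppc these were Dnajc30 (r = 0.985), Rab17 (r = 0.972) and Nt5c2 (r = 0.968). For Npr2 they were Tnks (r = 0.991), Jpt1 (r = 0.961) and Rab25 (r = 0.960), and for Npr3 Etv1 (r = 0.975), Cep41 (r = 0.972) and Scml2 (r = 0.972). These Pearson correlations share arrays and vehicle partners, span level ranges of 0.21 to 0.77 log2 in the matched genes, and are the highest of many, so they only name the most similar profiles.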

How the data were processed

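Palm skin RNA of WT and PAC1R KO mice was hybridised on 8 Agilent 2-colour arrays, 2 with exchanged dyes for each of 4 pairs of PACAP and vehicle samples. Each pair counted as 1 replicate. The authors read the scans with Agilent Feature Extraction, which the headers give as 12.0.3.1 and the submitters' processing notes as 11.0.1.1. The deposited log10 ratio of red over green is background-corrected and LOWESS-normalized by the authors on every array separately. Each spot's deposited p-value comes from the software's error model. The deposited intensity values are processed signals, mean signals and local backgrounds of each channel. The authors' series matrix holds log10 ratios that equal the ratio of processed signals within 5e-10 at 43020 spots.

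Control and outlier spots were left out, ratios were turned to PACAP over vehicle, changed to log2, and averaged over spots and both arrays. Levels came from normexp (offset 50), loess and Aquantile, averaged over both dyes. Vehicle samples were compared with limma 3.58.1 (lmFit, eBayes, Benjamini-Hochberg) in R 4.3.3. The replicates are arrays and RNA samples with no named animals, so p-values measure only the spread between these samples. On simulated data for 2 against 2 vehicle samples, with a log2 change of 3 given to 200 of 24903 probes, limma found 200 with 21 false calls. That change was larger than every member difference between vehicle samples, and the simulated noise was independent between samples. The simulation therefore does not show how well differences of the members' size would be found. Other steps used matplotlib 3.10.9, scipy 1.17.1, pandas 2.3.3 and numpy 2.4.6 under Python 3.11.15.

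The members, gene lists and tests were chosen with earlier results of these data known. All member probes are named, with the extreme pathway genes of each comparison among those above background, the 3 closest profiles of each well-detected member, and Adcyap1r1. The rule asked for 2 to 4 markers where a list is described. All neutrophil genes, Sprr1b and the other marker genes beyond that number were named after their values were seen. Some lists are given by counts alone. The number of arrays limits the precision. Alternatives were other normalizations, filters, thresholds and left-out arrays or samples. Sequences are from the array files and RefSeq (GRCm38.p6), where 6 of 6 members matched by symbol.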

Additional observations from a re-analysis of the deposited data

Results flagged for a closer look

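At 30 min, all 3 members above background in all samples had ratios of PACAP over vehicle in opposite directions in WT and KO on both arrays of each: Nppc had log2 ratios of -0.23 in WT and 0.04 in KO, Npr2 of -0.12 and 0.16, and Npr3 of 0.26 and -0.41. The Nppc ratios in KO then were 0.02 and 0.05 by array, with Feature Extraction p of 0.914 and 0.812, so their direction is not established. At 60 min, Nppc did so with 0.09 in WT and -0.30 in KO. The difference was not tested for any of them, and each comparison has 1 pair of RNA samples. Among probes above background in both channels on these arrays, 51.8% of 20451 probes were opposite in this way at 30 min and 15.3% of 21559 at 60 min. At 30 min the share among the members is thus read against a background of 10592 such probes.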

How the results depend on the processing

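Nppb remained past the thresholds in KO at 30 and at 60 min under every alternative tried, with 1 member past them each time, and 0 members passed in WT. Its log2 ratio was 1.26 in KO at 30 min and 1.15 in KO at 60 min after normexp and loess, where the offset draws dim signals together. Single arrays gave 2.90 to 3.42 in KO at 30 min, 2.03 to 2.25 in KO at 60 min, -1.12 to 0.24 in WT at 30 min and -0.63 to 1.41 in WT at 60 min. The log2 ratios of the other members lay between -0.53 and 0.37 under all alternatives. Upward calls over all probes in WT at 30 min went from 100 to 32 and downward calls from 38 to 25 after normexp and loess, and to 446 and 103 at 1.5-fold. Upward and downward calls after normexp and loess went from 56 and 59 to 29 and 43 in KO at 60 min. They went from 237 and 42 to 154 and 10 in KO at 30 min, and from 230 and 43 to 160 and 10 in WT at 60 min. On 1 array alone, upward and downward calls were 293 and 319 or 550 and 320 in WT at 30 min, and 256 and 445 or 285 and 161 in KO at 60 min, against 56 and 59 on both arrays. Such calls on 1 array were 435 and 446 or 723 and 474 in KO at 30 min, and 374 and 463 or 559 and 120 in WT at 60 min. The shares over all probes given above therefore depend on the processing.

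In the limma fits on vehicle samples, leaving out 1 of 4 samples gave 0 to 62 calls for KO against WT and 0 to 214 for 60 against 30 min. The 62 came without KO at 30 min, 214 without WT at 60 min and 9 without KO at 60 min, where the lone sample is assumed to vary like the others, and the cause was not tested. Without scaling between arrays the median of all probes shifted by 0.17 for KO against WT, where Npr2 had 0.14, and for 60 against 30 min Nppa had 0.088. With the PACAP samples, KO against WT had 0.012 for Npr2 and -0.023 for Npr3. Leaving out 1 sample gave Npr2 -0.25 to 0.14 and Npr3 -0.077 to 0.46 for KO against WT, and Nppa -0.095 to 0.053 and Nppb -0.061 to 0.37 for 60 against 30 min. Those are the differences that changed sign, and Nppc, Npr2 and Npr3 were not called in the fits on all 4 vehicle samples. With the replicate number as the pair, no paired analysis was possible because this number marks the dye orientation of the same pair of RNA samples. It pairs no samples across groups. Pairing by time or by genotype was possible: either was fitted as a covariate over the 4 vehicle samples, with 0 calls in both limma fits. These fits had 1 residual degree of freedom. For KO against WT their limma adjusted p was 0.436 for Nppc, 0.842 for Npr2 and 0.536 for Npr3. Dim signals limit Nppb in WT and Npr1 in all samples.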
